A study of Arabidopsis thaliana with 36 samples.

Results

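The genes described here encode the sliding clamp of DNA replication (PCNA1, AT1G07370, and PCNA2, AT2G29570), the 6 subunits of the replicative helicase (MCM2, AT1G44900; MCM3, AT5G46280; MCM4, AT2G16440; MCM5, AT2G07690; MCM6, AT5G44635; and MCM7, AT4G02060) and 2 subunits of ribonucleotide reductase (RNR1, AT2G21790, and TSO2, AT3G27060). They were chosen by gene identifier, with earlier results of these data known, and make up 10 of the 32833 genes in the count table. All 10 passed the filter on low counts in shoots and in roots. PCNA is a ring that holds DNA polymerases on their template, and the MCM ring unwinds the double helix ahead of the replication fork. Ribonucleotide reductase makes the deoxyribonucleotides used for synthesis, RNR1 being its large subunit and TSO2 a small subunit. In plants, as in animals, transcripts of these genes accumulate around S phase under the control of E2F transcription factors.

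The libraries came from hydroponic Arabidopsis seedlings of age 11 days, with shoots and roots profiled separately, and there were 12 groups of 3 libraries. WT was Col-0, and tpst was the T-DNA insertion mutant tpst-1 in the same background, which lacks the tyrosylprotein sulfotransferase that activates phytosulfokine (PSK) and other sulfated peptides. tpst plants were left untreated, had their medium replaced by fresh medium with PSK at 10 nM (30 min, 2 h or 5 h before harvest), or were germinated in PSK at 10 nM and kept there until harvest (11 days). WT and untreated tpst plants had no change of medium, so a short exposure to PSK and the change of medium cannot be told apart in comparisons with untreated tpst. Among the short exposures, time in PSK and time since the change of medium were equal and cannot be told apart either. A single insertion line was used, and each library pooled several seedlings. Library totals ran from 21559655 to 36921510 counts. TPST, the mutated gene, had 15.0 to 17.6 CPM (counts scaled to a common library total, TMM-normalized within each tissue) in WT shoots against 5.18 to 8.24 CPM in all tpst shoots, and 27.6 to 29.1 CPM in WT roots against 11.4 to 16.6 CPM in all tpst roots, so reads still fell on the gene in the mutant. Sums of marker genes used CPM normalized over all 36 libraries together. The 14 photosynthesis genes summed to 34840 to 64190 CPM in shoots and to 252 to 1972 CPM in roots. The highest root value was that of the third untreated tpst library. The 9 root markers summed to 52.0 to 76.7 CPM in shoots and 386 to 629 CPM in roots.

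The starts of 8 of these genes carry words that E2F factors are known to bind, which is why some promoter sequences are shown first. The window from 250 bases before to 50 bases after the annotated gene start was read from the RefSeq genome (TAIR10.1), whose coordinates equal those of the count table for all 10 genes. The 8-letter words TTTCCCGC, TTTGGCGC, TTTCGCGC and TTTGCCGC were searched on both strands and were present in 6 of the 10 windows (MCM2, MCM3, MCM4, MCM5, MCM6 and RNR1), against 1.76% of 27419 protein-coding genes. The 7-letter cores, which are the same words without their leading T and were searched after the promoters had been read, added PCNA1 and PCNA2 to give 8 of 10, against 3.63% of all. The unrelated site II words (TGGGCC, with the variant that ends in T in place of the last C), known from promoters of PCNA and other proliferation genes, were present in 7 of 10 windows against 21.7% of all. MCM7 and TSO2 held neither kind of word in this window. A match is a description of letters and not a test of binding. The windows of MCM2, MCM5 and RNR1, which carry a core word within 26 bases of the start, and that of TSO2, which carries none, are given 5′ to 3′ on the strand of the gene, with the 7-letter E2F cores of either strand in capitals.
MCM2 promoter (chr1:16969964-16970263, + strand): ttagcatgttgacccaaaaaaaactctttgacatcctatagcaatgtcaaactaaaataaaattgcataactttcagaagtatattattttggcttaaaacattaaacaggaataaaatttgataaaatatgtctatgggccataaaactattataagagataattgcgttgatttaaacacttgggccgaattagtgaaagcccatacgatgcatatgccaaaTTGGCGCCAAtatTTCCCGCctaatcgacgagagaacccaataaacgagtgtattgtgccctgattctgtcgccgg
MCM5 promoter (chr2:3527451-3527750, - strand): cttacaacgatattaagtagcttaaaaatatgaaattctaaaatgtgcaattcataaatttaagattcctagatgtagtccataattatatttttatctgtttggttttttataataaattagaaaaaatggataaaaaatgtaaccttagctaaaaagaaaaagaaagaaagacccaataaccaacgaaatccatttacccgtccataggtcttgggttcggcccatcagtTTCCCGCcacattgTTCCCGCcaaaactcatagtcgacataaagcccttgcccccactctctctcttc
RNR1 promoter (chr2:9293011-9293310, + strand): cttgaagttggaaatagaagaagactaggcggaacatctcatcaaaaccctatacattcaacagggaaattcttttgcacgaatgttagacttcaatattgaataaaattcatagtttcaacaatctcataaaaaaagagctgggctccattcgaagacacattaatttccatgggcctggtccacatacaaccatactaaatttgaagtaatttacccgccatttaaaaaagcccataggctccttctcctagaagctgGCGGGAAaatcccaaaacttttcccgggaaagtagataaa
TSO2 promoter (chr3:9981571-9981870, - strand): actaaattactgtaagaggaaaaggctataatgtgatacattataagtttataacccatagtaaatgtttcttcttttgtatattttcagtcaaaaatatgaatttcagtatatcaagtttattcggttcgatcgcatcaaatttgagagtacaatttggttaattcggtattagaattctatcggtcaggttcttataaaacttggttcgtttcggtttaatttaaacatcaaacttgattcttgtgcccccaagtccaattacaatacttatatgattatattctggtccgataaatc

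In MCM2, the words lay at -26, -23 and -13 from the gene start, counted to the leftmost base of each word. In MCM5 they lay at -18 and -4, and in RNR1 the word lay at 11, inside the transcript. In the other genes the cores lay at -170 and -62 in MCM3, -35 in MCM4, -46 in MCM6, -8 in PCNA2 and 18 in PCNA1. Site II words lay between -130 and -19.

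**Figure D1:**
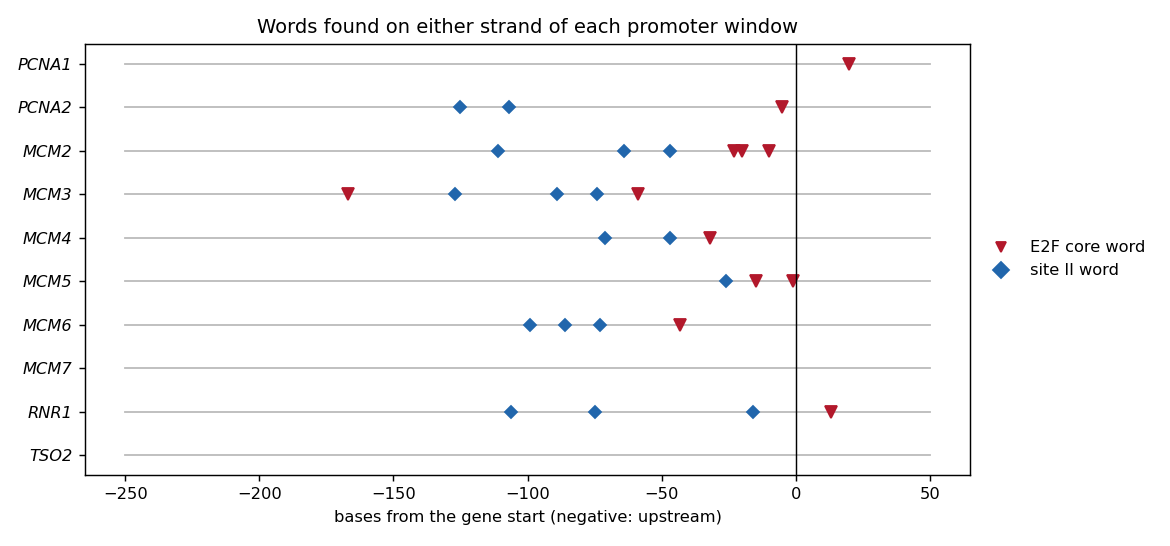
Positions of E2F core words (red triangles) and site II words (blue diamonds) in the promoter window of each gene, in bases from the annotated gene start. E2F cores are present in 8 of 10 genes and lie close to the start in most of them, while MCM7 and TSO2 have no word of either kind.

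Levels are first given for untreated tpst, divided by gene length so that genes can be set side by side. In shoots TSO2 was the most abundant at 97.4 ± 6.7 CPM per kb (SD, n = 3), followed by RNR1 at 41.9 ± 1.8, PCNA1 at 29.9 ± 1.1 and PCNA2 at 24.4 ± 0.56 CPM per kb. The helicase subunits were lower, from 16.5 ± 1.6 CPM per kb for MCM7 to 7.0 ± 0.84 for MCM6. Neighbours in this order whose 3 libraries overlapped were MCM7 with MCM5 (15.9 ± 1.1) and MCM2 (10.7 ± 1.1) with MCM4 (10.4 ± 0.62). In roots TSO2 was again highest at 63.1 ± 0.48 CPM per kb, but PCNA1 at 43.5 ± 3.5 stood above RNR1 at 36.8 ± 0.83 and PCNA2 at 31.3 ± 1.7 CPM per kb. MCM5 (21.0 ± 1.0) overlapped MCM7, and MCM2 (16.1 ± 2.1) overlapped both MCM4 (17.7 ± 0.60) and MCM3 (15.0 ± 0.69), with MCM6 lowest at 9.50 ± 0.67 CPM per kb. The helicase subunits, which act together in one ring, differed by 2.12 to 2.52 times between the highest and the lowest within an untreated tpst shoot library.

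The comparison of WT with untreated tpst asks what the mutation itself does to these genes. In shoots none of the 10 genes was called (changed 2 times over or more, with edgeR's adjusted p below 0.05), against 4.36% of all genes called lower. An unadjusted p below 0.05 was reached by 4, and DESeq2 called 0. TSO2 and MCM5 passed the adjusted p without the fold minimum, against 11.8% of all genes in that direction. TSO2 had 121, 99.7 and 106 CPM in WT and 165, 153 and 176 CPM in untreated tpst, groups that did not overlap (log2 fold change -0.60, SE 0.179, adjusted p = 0.0206). RNR1 and PCNA2 overlapped between the genotypes in shoots, with log2 fold changes of 0.04 (SE 0.0733) and 0.04 (SE 0.0776). In roots 0 of 10 genes were called, against 3.12% of all genes called lower. The unadjusted p of 8 was below 0.05, and DESeq2 called 0. All 10 root values were below 0, from -0.48 (TSO2) to -0.10 (PCNA2), and 6 passed the adjusted p alone, against 10.6% of all genes in that direction.

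In shoots of tpst, all 10 genes were lower after 5 h and after 11 days of PSK, and the difference grew between 30 min and 5 h. At 30 min none was called, against 0.274% of all genes called lower. By unadjusted p, 8 were below 0.05, and DESeq2 called 0. The 4 genes PCNA1 (-0.60), MCM3 (-0.51), MCM7 (-0.45) and RNR1 (-0.35) passed the adjusted p alone, against 2.00% of all genes. At 2 h 5 were called lower (PCNA1, MCM2, MCM3, MCM7 and TSO2), against 2.35% of all genes, and all 10 passed the adjusted p alone, against 13.9%. At 5 h all 10 were called lower, against 9.30%, and at 11 days all 10 again, against 7.76%. By the adjusted p alone the shares of all genes were 28.3% and 25.5%. The median log2 fold change of the 10 genes went from -0.36 at 30 min to -1.02 at 2 h, -1.73 at 5 h and -1.20 at 11 days, while that of all genes tested was -0.01 each time. The libraries of all 10 genes lay below those of untreated tpst at 2 h, 5 h and 11 days, against 21.4%, 31.2% and 28.3% of all genes, and those of 8 did so at 30 min, against 13.1%. These are bulk samples, so fewer dividing cells and less of each transcript per dividing cell cannot be told apart.

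**Figure D2:**
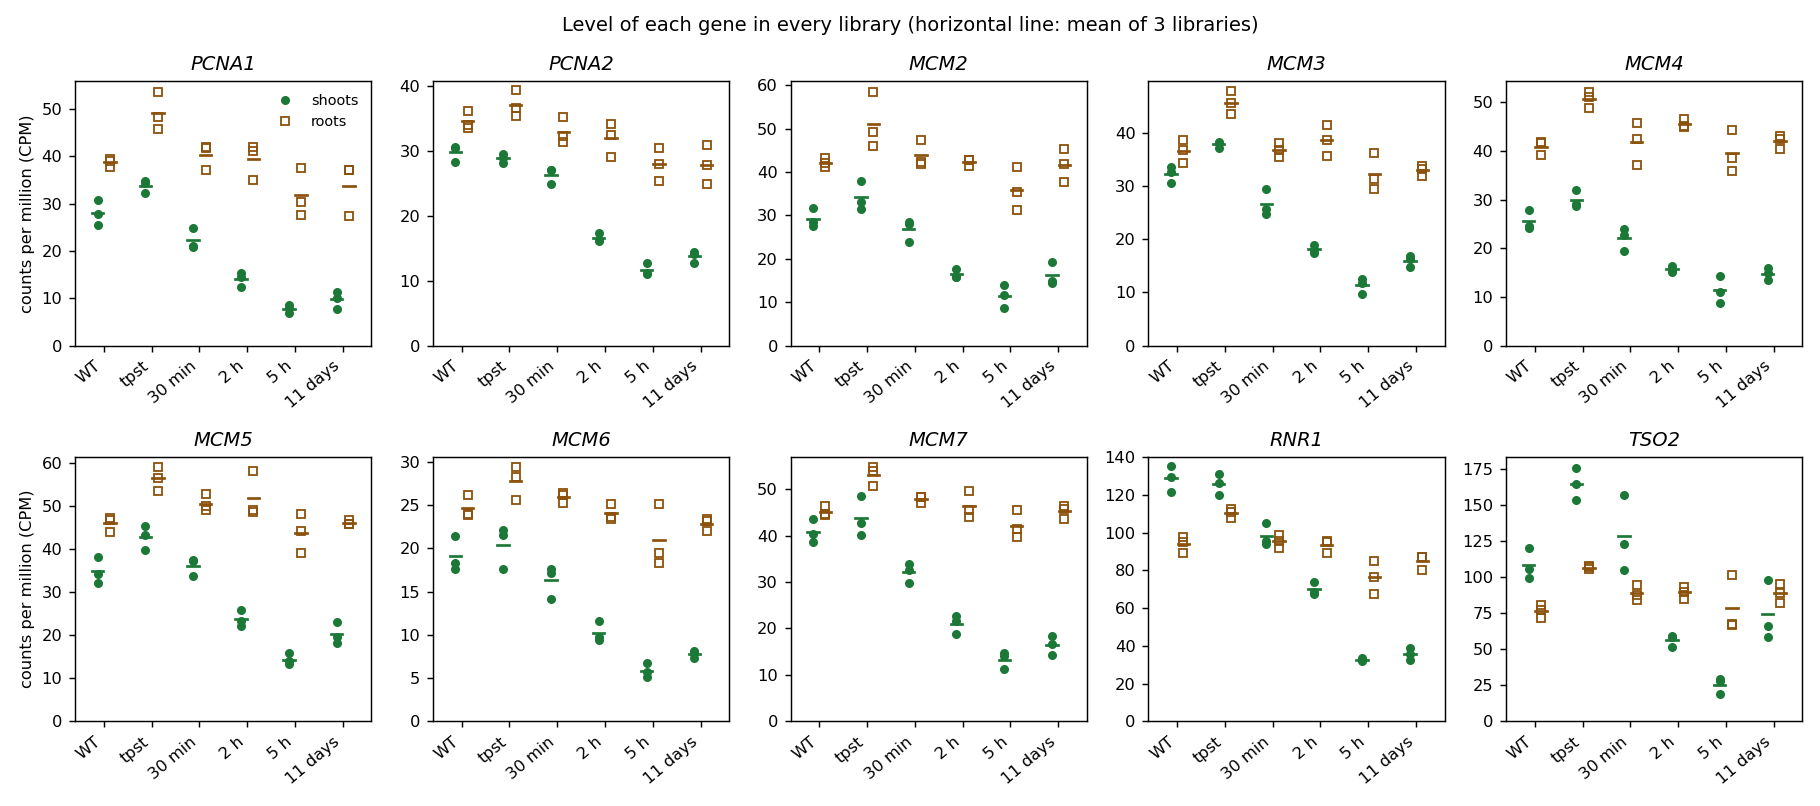
CPM of each of the 10 genes in all 36 libraries, with shoots as filled green circles and roots as open brown squares, and a horizontal line at the mean of 3 libraries; each panel has its own axis starting at 0. From 2 h of PSK the shoot points of every gene lie below all 3 untreated tpst shoot points, whereas the root points move less. CPM were normalized within each tissue, so the heights of shoot and root points are not on a common scale.

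Both clamp genes fell. PCNA1 had 34.7, 34.4 and 32.3 CPM in untreated tpst shoots, 24.8, 21.1 and 20.9 CPM at 30 min, 14.4, 12.4 and 15.3 CPM at 2 h, 6.96, 7.90 and 8.67 CPM at 5 h, and 7.79, 11.4 and 10.1 CPM at 11 days. No treated library overlapped the untreated ones at any time, and the fall at 5 h was 4.30-fold (log2 -2.10, SE 0.133, adjusted p = 1.52e-09). PCNA2 had 28.1, 29.4 and 28.9 CPM in untreated tpst shoots, 27.1, 27.0 and 24.9 CPM at 30 min, 17.4, 16.1 and 16.3 CPM at 2 h, 11.1, 12.8 and 11.2 CPM at 5 h, and 12.7, 14.4 and 14.2 CPM at 11 days. Its 30-min libraries were already below the untreated ones, but only slightly, and the fall reached 2.47-fold at 5 h (log2 -1.30, SE 0.081, adjusted p = 1.30e-09). Per kb of gene, PCNA1 made up 53.9% to 56.4% of the PCNA transcript in untreated tpst shoots, 45.0% to 49.0% at 30 min, 39.4% to 44.8% at 5 h and 39.1% to 45.3% at 11 days, so by this measure the more abundant of the pair changed from PCNA1 to PCNA2. PCNA2 overlaps a neighbouring gene by 279 bases, so its level per kb, and with it which of the pair was more abundant, is uncertain. In WT shoots the share was 48.6% to 51.4%, and in roots it stayed between 50.9% and 58.8% in every library. The shares were given as ranges and were not tested.

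All 6 helicase genes fell at 5 h. MCM3 had 38.3, 38.0 and 37.0 CPM in untreated tpst shoots, 29.4, 25.7 and 24.7 CPM at 30 min, 17.4 to 18.9 CPM at 2 h, 9.77, 12.5 and 11.7 CPM at 5 h, and 14.8, 16.2 and 16.8 CPM at 11 days. The PSK libraries of MCM3 were below the untreated ones at all times, and the log2 fold change at 5 h was -1.74 (SE 0.0945, adjusted p = 4.32e-10). MCM6 had 22.1, 21.5 and 17.6 CPM untreated, 17.1, 17.6 and 14.1 CPM at 30 min, 9.73, 11.6 and 9.37 CPM at 2 h, 5.67, 5.09 and 6.75 CPM at 5 h, and 8.13, 7.37 and 7.94 CPM at 11 days. At 30 min MCM6 overlapped the untreated libraries, and at 5 h it had the largest fall of the 6 (3.49-fold, log2 -1.80, SE 0.137, adjusted p = 1.13e-08). MCM4 had the smallest fall of the 6 at 5 h: it had 32.0, 29.0 and 28.7 CPM untreated and 8.76, 11.0 and 14.3 CPM at 5 h (log2 -1.39, SE 0.135, adjusted p = 1.83e-07). MCM2, MCM5 and MCM7 had 34.2 ± 3.4, 42.7 ± 2.9 and 43.8 ± 4.3 CPM untreated and 11.4 ± 2.7, 14.3 ± 1.3 and 13.3 ± 1.9 CPM at 5 h (SD, n = 3). Their log2 fold changes at 5 h were -1.58, -1.57 and -1.72.

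The 2 h calls stood close to the fold minimum. MCM2 (-1.05, SE 0.145), MCM3 (-1.06, SE 0.0916) and MCM7 (-1.06, SE 0.113) were called, whereas MCM4 (-0.93), MCM5 (-0.85) and MCM6 (just under the minimum, SE 0.131) were not. Without replicate 1 of untreated tpst MCM2 had -0.97, without replicate 2 of untreated tpst or replicate 2 of the 2 h group MCM7 had -0.98 and -0.99, and without replicate 3 of untreated tpst or replicate 2 of the 2 h group MCM6 had -1.09 and -1.10, called. At 11 days the helicase genes ran from -1.42 (MCM7) to -1.02 (MCM4). There MCM2 had -0.997 and -0.993 without replicate 1 of untreated tpst and replicate 2 of the 11-day group, MCM4 had -0.97 and -0.95 without the same libraries, and MCM5 had -0.999 without the latter, all then uncalled.

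Both ribonucleotide reductase subunits fell. RNR1, the large subunit, had 131, 126 and 120 CPM in untreated tpst shoots, 95.9, 105 and 93.8 CPM at 30 min, 73.8, 68.8 and 67.7 CPM at 2 h, 31.9, 33.8 and 32.6 CPM at 5 h, and 32.4, 35.6 and 38.7 CPM at 11 days. It was below the untreated libraries at every time, with log2 fold changes of -1.94 at 5 h (SE 0.0769, adjusted p = 2.94e-11) and -1.82 at 11 days (SE 0.0764, adjusted p = 4.22e-11). TSO2, a small subunit, had 165, 153 and 176 CPM untreated, 157, 123 and 105 CPM at 30 min, 59.3, 51.5 and 58.5 CPM at 2 h, 19.3, 28.3 and 29.1 CPM at 5 h, and 58.6, 66.1 and 98.2 CPM at 11 days. TSO2 overlapped untreated tpst at 30 min, fell the most of all 10 genes at 2 h (-1.55, SE 0.183) and at 5 h (-2.69, SE 0.192, a 6.44-fold fall, adjusted p = 5.86e-09), and had -1.15 at 11 days (SE 0.181), or -0.9998 without replicate 1 of that group, then uncalled. Per kb, TSO2 was 2.33 ± 0.24 times as abundant as RNR1 in untreated tpst shoots, 1.43 ± 0.10 times at 2 h, 1.38 ± 0.27 times at 5 h and 3.67 ± 0.72 times at 11 days (SD, n = 3). In roots this ratio had group means between 1.45 and 1.86.

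Exposure times were also set against each other, the groups differing as much in time since the change of medium as in time in PSK. From 30 min to 2 h all 10 genes had lower values in shoots, from -1.19 (TSO2) to -0.49 (RNR1), and all passed the adjusted p alone, against 3.74% of all genes. TSO2 was the 1 gene called lower, against 0.514%. From 2 h to 5 h RNR1 (-1.10, SE 0.0757, adjusted p = 5.48e-08) and TSO2 (-1.14, SE 0.186, adjusted p = 1.68e-04) were called lower, against 2.64% of all genes (all 10 by the adjusted p alone, against 17.6%), and TSO2 had -0.98 without replicate 1 of the 5 h group. From 30 min to 5 h 9 genes were called lower, against 5.41%, and all 10 passed the adjusted p alone, against 23.4%. The called values ran from -2.33 (TSO2) to -1.17 (PCNA2). The exception was MCM4 at -0.96 (SE 0.135), which was called without replicate 3 of the 30 min group (-1.04) or of the 5 h group (-1.16).

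**Figure D3:**
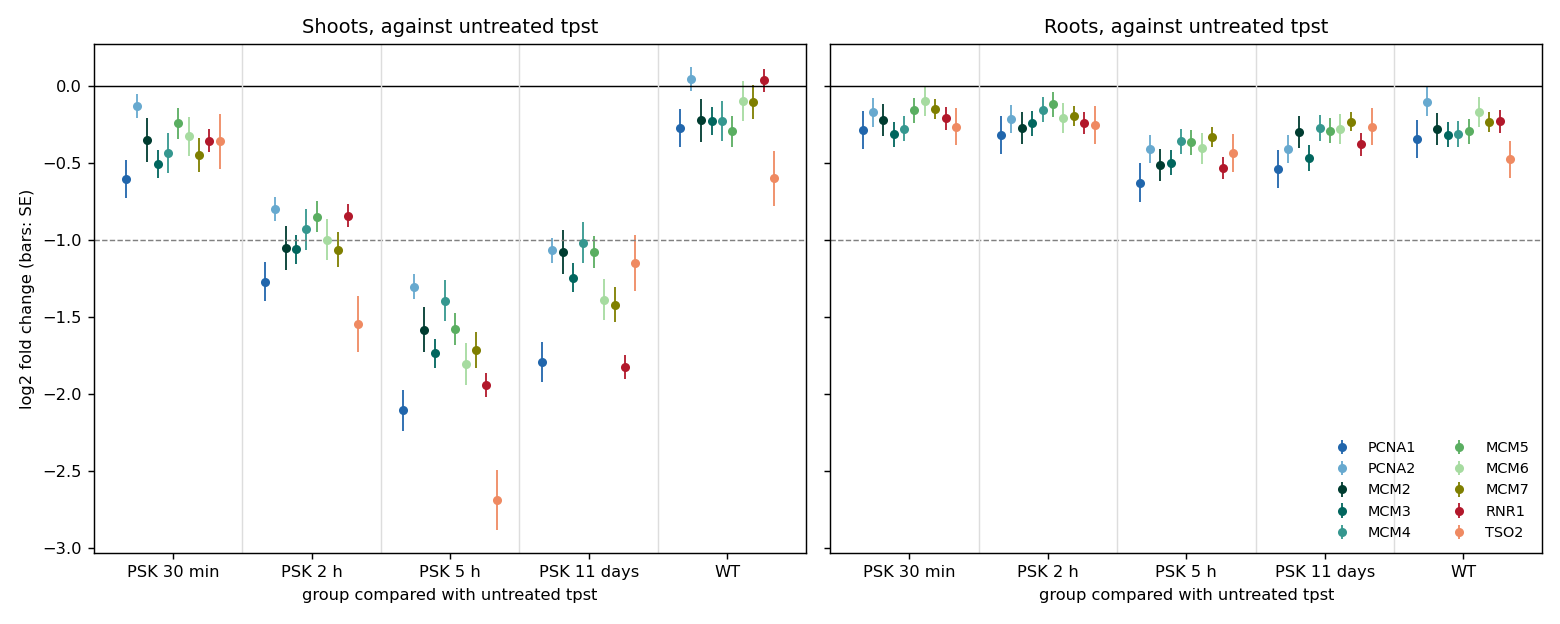
Log2 fold change of each gene against untreated tpst, with its SE, for the 4 PSK exposures and for WT, in shoots (left) and roots (right); the dashed line marks a fold of 2. In shoots the points move from between -0.60 and -0.13 at 30 min to between -2.69 and -1.30 at 5 h, and in roots no point passes the dashed line.

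tpst shoots raised on PSK were lower than WT shoots for these genes, as well as lower than untreated tpst. In all, 6 genes were called lower in the 11-day group than in WT, against 9.25% of all genes: RNR1 (-1.86, SE 0.0765), PCNA1 (-1.52), MCM7 (-1.32), MCM6 (-1.29), PCNA2 (-1.11) and MCM3 (-1.02). RNR1 had 135, 122 and 130 CPM in WT against 32.4 to 38.7 CPM in that group, with no overlap. The other 4 had log2 fold changes of -0.85 (MCM2), -0.79 (MCM4), -0.78 (MCM5) and -0.55 (TSO2), and all 10 passed the adjusted p alone, against 29.0% of all genes. MCM3 was the least secure of the calls, with no call without a filter on low counts (-0.99), with a minimum count of 50 (-0.98), without replicate 1 (-0.96) or 3 (-0.98) of WT, or without replicate 1 of the 11-day group (-0.94).

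In roots all 10 genes had values below 0 at each exposure, but within a fold of 2. No gene was called at 30 min (0.393% of all genes were called lower), at 2 h (1.01%), at 5 h (1.09%) or at 11 days (0.862%). By unadjusted p, 7, 6, 10 and 10 were below 0.05, and DESeq2 called 0 each time. At 5 h all 10 passed the adjusted p alone, against 9.94% of all genes lower, with log2 fold changes from -0.63 (PCNA1) to -0.33 (MCM7). At 11 days 7 did, against 8.77%, from -0.54 (PCNA1) to -0.23 (MCM7). PCNA1 had 45.7, 53.6 and 48.3 CPM in untreated tpst roots, 30.3, 27.7 and 37.5 CPM at 5 h, and 27.3, 37.1 and 37.0 CPM at 11 days, without overlap. RNR1 had 108, 111 and 113 CPM untreated, 76.4, 67.6 and 84.8 CPM at 5 h (log2 -0.53, SE 0.0729, adjusted p = 3.07e-04), and 80.1, 87.2 and 87.1 CPM at 11 days. TSO2, which fell most in shoots at 5 h, had 107, 106 and 108 CPM untreated and 67.1, 67.7 and 102 CPM at 5 h, where the last library stood near the untreated ones.

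For all 10 genes the root libraries at 5 h and at 11 days lay below those of untreated tpst, against 16.7% and 17.6% of all genes. Without the third untreated tpst root library, which was high in photosynthesis transcripts, the median log2 fold change of the 10 genes at 5 h was -0.42, as with it, and 9 passed the adjusted p alone. At 11 days 4 rather than 7 passed without the third, and also without the second, untreated library, with medians of -0.33 and -0.27. Between exposure times in roots 0 genes were called lower from 30 min to 2 h (0.00468% of all genes), from 30 min to 5 h (0.262%) and from 2 h to 5 h (0.0375%), with 0, 8 and 7 below 0.05 by unadjusted p and 0 by DESeq2. RNR1 passed the adjusted p alone from 30 min to 5 h (-0.32, against 4.71% of all genes). For 11 days against WT in roots 0 were called (4.28%), 1 was below 0.05 by unadjusted p and DESeq2 called 0, the 1 being PCNA2, which also passed the adjusted p alone (-0.31, against 14.9%).

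The difference between tissues was tested directly, as the root change minus the shoot change in a fit of all 36 libraries. At 5 h it was positive for all 10 genes and 9 were called, against 3.76% of all genes called higher. The values were 2.23 for TSO2 (SE 0.236, adjusted p = 1.20e-07), 1.45 for PCNA1 (SE 0.185, adjusted p = 1.88e-06), 1.38 for RNR1 (SE 0.103, adjusted p = 3.18e-10), and 1.01 (MCM4) to 1.38 (MCM6) for the helicase genes. PCNA2 had 0.87 (SE 0.117), and all 10 passed the adjusted p alone, against 12.3%. The calls of MCM2 (1.05) and MCM4 (1.01) rested on the fold minimum: both were lost without replicate 1 of the untreated shoots (0.97 and 0.96), replicate 1 of the 5 h shoots (0.89 and 0.86), replicate 3 of the untreated roots (0.98 and 0.99) or replicate 3 of the 5 h roots (0.94 and 0.92), and that of MCM4 also without replicate 2 of the 5 h shoots (0.98). At 11 days 4 genes were called (RNR1 1.43, PCNA1 1.24, MCM7 1.17 and MCM6 1.09), against 2.74%, and all 10 passed the adjusted p alone, against 10.6%. Without replicate 3 of the 11-day shoots TSO2 was called too (1.12). At 2 h TSO2 (1.27) was called, against 0.296%, and all 10 passed the adjusted p alone, against 2.43%. Without replicate 1 of the 2 h roots PCNA1 was called there too (1.01). At 30 min none was called, against 0% of all genes called higher, 1 was below 0.05 by unadjusted p, and DESeq2 called 0. For WT against tpst the tissue difference called 0 as well, against 2.67% of all genes called lower, with 1 gene (RNR1, -0.30) below 0.05 by unadjusted p and 0 called by DESeq2. RNR1 also passed the adjusted p alone, against 9.80% of all genes.

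Without PSK or mutation, the 10 genes were within a fold of 2 between the tissues. Between WT roots and WT shoots none of the 10 was called, against 21.5% of all genes called higher and 19.8% called lower. By adjusted p alone 1 was higher (MCM4, 0.26), against 35.4%, and 5 were lower, against 35.9%. By unadjusted p 6 were below 0.05, and DESeq2 called 0. The largest differences were those of TSO2 (-0.92, SE 0.165) and RNR1 (-0.87, SE 0.0728), both lower in roots.

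Pearson correlations between pairs, on log2 CPM within shoots, ran from 0.81 to 0.99 with a median of 0.96 over 18 libraries, and within roots from 0.49 to 0.91 with a median of 0.82; all pairs share their libraries and the group differences above. With each tissue's mean removed, each gene followed the mean of the other 9 with r between 0.91 (TSO2) and 0.99 (MCM3) over 36 libraries. The 5 genes most like the mean of the 10, among 15994 genes compared over the same 36 libraries, were AT5G63550, described as a DEK domain chromatin protein (r = 0.98), DUT1, which removes dUTP (0.97), AT5G04895, described as an RNA helicase (0.96), AT5G15980, described as a pentatricopeptide repeat protein (0.96), and POLA3, a primase subunit (0.96).

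Other genes of DNA replication fell in shoots as well. Of 46 such genes, from origin recognition to strand joining, 45 were tested in shoots, and 0, 2, 27 and 17 were called lower at 30 min, 2 h, 5 h and 11 days, with median log2 fold changes of -0.23, -0.59, -1.07 and -0.92. Of all genes, 0.274%, 2.35%, 9.30% and 7.76% were called lower at these times. None was called higher at any of these times. The smallest adjusted p at 5 h belonged to RPA1D (-1.78, SE 0.126), a subunit of the single-strand binding complex, POLA3 (-1.48, SE 0.11), LIG1 (-1.45, SE 0.121), the DNA ligase that joins Okazaki fragments, and RPA3A (-1.68, SE 0.144), another single-strand binding subunit. At 2 h the 2 calls were RPA3A, at the fold minimum, and RPA1B (-1.24, SE 0.179). At 11 days they included POLA3 (-1.33), FEN1, a flap nuclease (-1.13), LIG1 (-1.37) and ORC3, an origin recognition subunit (-1.26). In roots POL2B, a catalytic subunit of DNA polymerase epsilon, was called higher at 5 h (1.78, SE 0.546, adjusted p = 0.0327) and in WT (1.73, SE 0.55), and no gene of the list was called at the other 3 exposures. The highest value of the list there was 1.14, 1.19 and 1.14 at 30 min, 2 h and 11 days. All these values share the same untreated tpst root libraries. Root genes called in either direction, with each library left out in turn, numbered 342 to 847 at 5 h and 1038 to 1344 in WT. Of 21358 tested with all libraries, 232 and 666 were called lower. None of the 46 was called lower in roots at any PSK exposure, against at most 1.09% of all genes. By the adjusted p alone 17 of the 46 were lower in roots at 5 h, against 9.94% of all genes. At 11 days 16 were, against 8.77%.

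Of 6 measured genes of nucleotide supply, DUT1 (-2.12, SE 0.123) and TK1B, a thymidine kinase (-1.90, SE 0.114), were called lower at 5 h in shoots, and the same pair at 2 h (-1.31 and -1.02). Of all genes, 9.30% were called lower at 5 h, 2.35% at 2 h and 7.76% at 11 days. RNR2A, the other measured small subunit of ribonucleotide reductase, had 0.02 at 5 h, whereas TSO2 had -2.69. At 11 days THY2, a bifunctional dihydrofolate reductase and thymidylate synthase, was called lower too (-1.01, SE 0.099), together with TK1B (-1.58) and DUT1 (-1.42). None of the 6 was called in roots at these exposures, against at most 1.09% of all genes called lower. By the adjusted p alone 2 of the 6 were lower in roots at 5 h, against 9.94% of all genes. At 11 days 3 were, against 8.77%.

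Among 9 E2F, DP and RBR1 regulators, 0, 0, 3 and 3 were called lower in shoots at the 4 exposures, against 0.274%, 2.35%, 9.30% and 7.76% of all genes. At 5 h these were E2FA, an activator of S-phase genes (-1.52, SE 0.139), and the atypical E2F repressors DEL1 (-1.85, SE 0.172) and DEL3 (-1.06, SE 0.167). At 11 days they were DEL1 (-1.59), DEL3 (-1.06) and DEL2 (-1.14). None was called in roots at these exposures, against at most 1.09% of all genes called lower. By the adjusted p alone 4 of the 9 were lower in roots at 5 h, against 9.94% of all genes. At 11 days 3 were, against 8.77%.

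Of 15 genes of mitosis, 0, 0, 8 and 4 were called lower in shoots at the 4 exposures, with medians of -0.16, -0.28, -1.10 and -0.70. The shares of all genes called lower were 0.274%, 2.35%, 9.30% and 7.76%. At 2 h 3 mitotic genes were lower by the adjusted p alone, against 13.9% of all genes. The 4 with the smallest adjusted p at 5 h were AUR2, an Aurora kinase (-1.78, SE 0.143), HINKEL, a kinesin of cytokinesis (-1.25, SE 0.127), PLEIADE, a microtubule bundling protein (-1.26, SE 0.135), and CYCB1;2, a mitotic cyclin (-1.32). Those called at 11 days included AUR2 (-1.11), HINKEL (-1.02) and CYCB2;1, another mitotic cyclin (-1.16). None was called in roots at these exposures, against at most 1.09% of all genes called lower. By the adjusted p alone 12 of the 15 were lower in roots at 5 h, against 9.94% of all genes. At 11 days 9 were, against 8.77%.

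Of 7 tested genes of the DNA damage response, 0, 0, 2 and 2 were called lower in shoots at the 4 exposures, and 0, 1, 1 and 1 higher, with medians of -0.05, -0.31, -0.87 and -0.62. The shares of all genes called lower were 0.274%, 2.35%, 9.30% and 7.76%. WEE1, a kinase of the replication checkpoint, was called lower at 5 h (-1.89, SE 0.229), and WEE1 (-1.19) and PARP2 (-1.05) were at 11 days. GMI1, a gene named for its induction by ionizing radiation and mitomycin C, was called higher at 2 h (1.59, SE 0.142), 5 h (a 5.64-fold rise) and 11 days (1.56, SE 0.142). Genes called in either direction, with each library left out in turn, numbered 706 to 951, 3369 to 3721 and 2839 to 3285 at these times. Of 20811 tested with all libraries, 490, 1935 and 1614 were called lower. None of the 7 was called in roots at these exposures, against at most 1.09% of all genes called lower. By the adjusted p alone 1 of the 7 was lower in roots at 5 h, against 9.94% of all genes, and 1 at 11 days, against 8.77%.

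**Figure D4:**
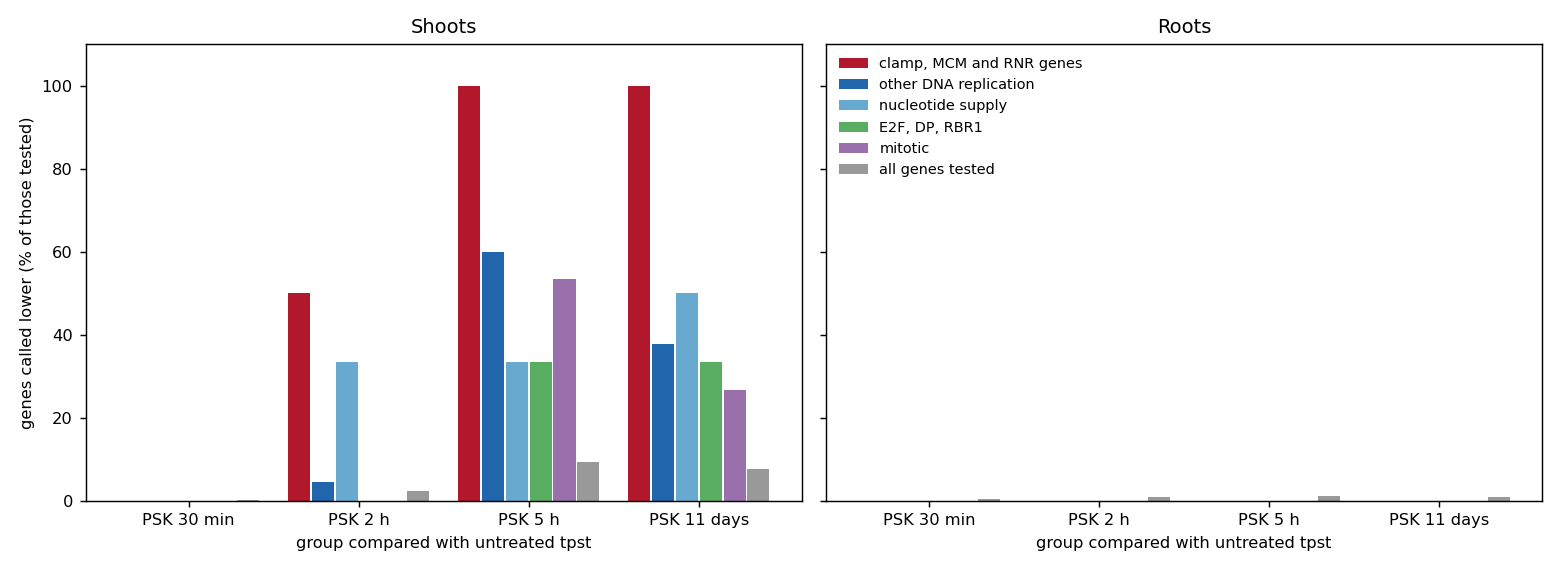
Share of each gene list, in percent of the genes tested, that was called lower against untreated tpst at the 4 PSK exposures, in shoots (left) and roots (right), with all genes tested in grey. At 5 h and 11 days in shoots all 10 clamp, helicase and reductase genes were called, against 9.30% and 7.76% of all genes, and in roots no gene of the 5 plotted lists was called lower.

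Clock genes also changed in these comparisons, and their values are given because the hour of collection is not named in the sources used here. The median log2 fold change of 5 genes that peak around dawn (CCA1, LHY, RVE4, RVE6 and RVE8) at 30 min, 2 h, 5 h and 11 days was 0.61, 1.32, 2.28 and 2.54 in shoots. The root medians were 0.27, 1.13, 2.28 and 2.28. All 5 were called higher in shoots at 5 h and 11 days. At 5 h, 3369 to 3721 genes were called in either direction with each library left out in turn. At 11 days it was 2839 to 3285, of 20811 tested with all libraries. Those called lower with all libraries numbered 1935 and 1614. The summed level of the clock genes used CPM normalized over all 36 libraries together. In shoots it went from 95.6 to 108 CPM in untreated tpst to 527 to 606 CPM at 5 h and 658 to 709 CPM at 11 days. None of the 5 genes was at 0 in any library. In roots the summed level went from at most 54.3 CPM to 224 to 284 CPM at 5 h. There the 10 replication genes had a median of -0.42, within a fold of 2, and all 10 were lower by the adjusted p alone. In WT shoots the median of the clock genes was -1.23 against untreated tpst, with that of the replication genes at -0.23. For 11 days of PSK against WT, the medians of clock and replication genes were 3.77 and -1.06 in shoots. In roots they were 2.35 and -0.07. Whether the hour of collection had a part in the replication gene values was not tested.

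A few of the genes overlap neighbours. PCNA2 overlaps AT2G29560 on the other strand by 279 bases, MCM7 overlaps AT4G02050 on the other strand and AT4G02055 on its own strand, and TSO2 overlaps AT3G27050 on its own strand by 3 bases. The strand setting of the counting is not given in the sources used here, so reads in those stretches cannot be assigned with certainty. No stretch of 50 exonic bases of any of the 10 genes recurred elsewhere in the nuclear genome, PCNA1 and PCNA2 included. The gene starts and ends, on TAIR10, were chr1:2263037-2264553 for PCNA1, chr2:12649906-12651753 for PCNA2, chr1:16970214-16974753 for MCM2, chr5:18769649-18773706 for MCM3 and chr2:7126279-7130729 for MCM4. They were chr2:3522984-3527500 for MCM5, chr5:18006212-18010667 for MCM6, chr4:900636-905591 for MCM7, chr2:9293261-9297861 for RNR1 and chr3:9979841-9981620 for TSO2.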

How the data were processed

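Paired-end reads of poly(A) RNA were processed by the authors with fastp, mapped to TAIR10 with HISAT2 2.0.5 and counted per gene with featureCounts 1.5.0-p3, and the deposited values used here are raw read counts. An FPKM table was not used. The 12 groups had 3 replicate libraries each, described as independent. No 2 replicates held identical counts. Libraries held 21559655 to 36921510 counts, and the lowest group mean of these genes was 5.84 CPM.

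Counts were analysed in R 4.3.3. Genes were filtered with filterByExpr (minimum count 10), which left 20811 in shoots, 21358 in roots and 22303 in the joint fit, and normalized by TMM. Tests were quasi-likelihood F tests (edgeR 4.0.16) on the 18 libraries of each tissue or, for tissue differences, on all 36, with Benjamini-Hochberg adjustment over all genes tested. Calling a gene took a change of 2 times or more and an adjusted p below 0.05. Every adjusted p given is from edgeR unless DESeq2 1.42.0 is named. The SE is the absolute log2 fold change over the square root of F. The 4 PSK groups and WT share 1 set of untreated tpst libraries. Log2 CPM used a prior count of 2. The script was tested on simulated data.

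The genes and the lists were chosen with earlier results of these data known. All 10 genes were named in each comparison, with up to 4 of each other list by adjusted p among those called, the values of RNR2A added after they were seen, and the 5 most alike genes averaging at least 5 CPM. A gene of the nucleotide list, RNR2B, was not matched, and 1 gene of the DNA damage list, which enters its counts and medians, is not reported here. Promoters came from RefSeq TAIR10.1, where 32532 of 32548 nuclear genes had the coordinates of the count table. Alternatives were RLE normalization, other filters (none, and a minimum count of 50), DESeq2, the 6 libraries of a comparison alone, a replicate block, no fold minimum, each library left out, and a robust fit added after seeing the data, as were the 7-letter cores.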

Additional observations from a re-analysis of the deposited data

Results flagged for a closer look

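The log2 changes against untreated tpst differed between roots and shoots for several of the genes, by the interaction test of edgeR (root change minus shoot change, with the same criteria for a call). At 5 h of PSK the differences were 1.45 for PCNA1, 1.05 for MCM2, 1.21 for MCM3, 1.01 for MCM4, 1.19 for MCM5, 1.38 for MCM6, 1.36 for MCM7, 1.38 for RNR1 and 2.23 for TSO2. At 11 days they were 1.24 for PCNA1, 1.09 for MCM6, 1.17 for MCM7 and 1.43 for RNR1, and at 2 h it was 1.27 for TSO2. All were positive, the shoot values being the lower. All pass through the same untreated tpst libraries of each tissue, so they are not separate observations.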

How the results depend on the processing

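For the 57 values called in single genes, 773 of 797 values under the alternatives kept the call, 24 lost it and 0 changed direction; the robust fit, chosen after seeing the data, changed no count of called genes. Among the 24, 22 came from a left-out library, and the others were MCM3 in shoots at 11 days against WT without a filter on low counts (-0.99) and with a minimum count of 50 (-0.98). Dropping the fold minimum changed counts by construction. In shoots the called genes became 2 for WT, 4 at 30 min, 10 at 2 h, 10 from 30 min to 2 h, 10 from 30 min to 5 h, 10 from 2 h to 5 h and 10 for 11 days against WT. In roots they became 6 for WT, 10 at 5 h, 7 at 11 days, 1 from 30 min to 5 h and 1 for 11 days against WT, and 6 for WT roots against WT shoots. For the tissue difference they became 1 for WT, 10 at 2 h, 10 at 5 h and 10 at 11 days. With each library left out, the called genes in shoots numbered 4 to 6 (2 h), 10 (5 h), 7 to 10 (11 days), 1 from 30 min to 2 h, 9 to 10 from 30 min to 5 h, 1 to 2 from 2 h to 5 h and 5 to 6 for 11 days against WT. The tissue difference gave 1 to 2 calls (2 h), 7 to 9 (5 h) and 4 to 5 (11 days), and every other count stayed at 0. Replicate numbers fell short of the criterion for pairing, a correlation over 0.1 in every same-numbered pair: deviations correlated over 0.1 in 21 of 45 same-numbered pairs in shoots, 25 of 45 in roots and 6 of 18 between tissues. Same-numbered libraries were more alike than others, for which it was 6 of 90, 7 of 90 and 1 of 36, with medians of -0.028, -0.047 and -0.026 against 0.091, 0.118 and 0.062. With the replicate number as a block 10 genes were called in shoots at 5 h and 10 at 11 days, and the block changed no call. Counts of 3 libraries a group limit the calls near a fold of 2.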
